A study of Callithrix jacchus and Rattus norvegicus and Loxodonta africana with 31 samples.

Results

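The heart was set against the brain in the common marmoset (Callithrix jacchus), a New World monkey, using 2 heart and 2 brain columns out of a deposited table that lists 19681 genes. Each tissue was represented by 1 female and 1 male column, and the labels number these animals individual 1 of their sex. Of the 31 samples of the series, 14 are from the marmoset. They include 4 brain samples, a frontal cortex and a cerebellum sample of each sex. The columns named for brain fit both regions, and which region, or what mixture of the regions, each column holds is stated in none of the sources used. The 2 kidney and 2 liver columns served as the reference for genes that were high in both heart and brain. Polyadenylated RNA of whole tissue was sequenced with a strand-specific protocol and 101 single-end cycles. The labels give sex and tissue for these samples, and no treatment, genotype or age is used here. Which heart chambers were sampled is likewise unstated in the sources used.

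Heart muscle cells and neurons are both electrically excitable. Each fires action potentials carried by voltage-gated sodium, calcium and potassium channels, restores its ion gradients with the sodium pump, and turns electrical activity into a calcium signal. In the heart muscle cell that signal is released from the sarcoplasmic reticulum and drives contraction of the sarcomere, with fatty acids as the main fuel. In the neuron calcium entry triggers the release of transmitter from synaptic vesicles, with glucose as the main fuel, and glial cells form myelin and clear transmitter. The comparison asked which genes separate the tissues, which members of shared gene families each tissue uses, and which genes the tissues have in common against kidney and liver. In these bulk samples, fewer cells of a type and less RNA per cell cannot be told apart.

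All levels are FPKM, in which fragments are counted per transcript length and scaled for library size, so they can be compared between genes per length. Differences are heart minus brain on the log2(FPKM + 1) scale, given with a standard error (SE) from limma, which was fitted with a term for the animal. A gene was called higher in a tissue when its difference was at least 1 with a p, adjusted by Benjamini and Hochberg over the genes tested, under 0.05. Adding 1 FPKM shrinks the differences of low genes.

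The labels were checked against tissue markers first. MYL2, the ventricular regulatory myosin light chain, stood at 17317 FPKM in the female heart and 27268.5 FPKM in the male heart, against 0.481 and 7.69 FPKM in the female and male brain. SNAP25, a core protein of synaptic vesicle fusion, stood at 1413.7 and 1327.4 FPKM in the female and male brain, against 2.61 and 2.15 FPKM in the heart. Markers of both brain regions were present in both brain columns. TBR1, a transcription factor of the cerebral cortex, stood at 22.2 FPKM in the female column and 16.1 FPKM in the male column. GABRA6, a GABA receptor subunit of cerebellar granule cells, stood at 98.1 and 120 FPKM, and PCP2, a Purkinje cell gene, at 35.5 and 30.004 FPKM. The skeletal muscle list, with 7 members in the table, summed to 2.62 and 2.60 FPKM in the female and male heart and to 0.325 and 0.649 FPKM in the brain. MYOG and TNNI2 were listed at 0 in both hearts, and MYH1 stood at 0.000930 and 0.0242 FPKM and MYH4 at 0.640 and 0.473 FPKM. TNNT3, fast skeletal troponin T, named from the Ensembl table alone, was the 1 member tested and was called higher in heart, at 1.81 and 1.75 FPKM against 0.0324 and 0.211 FPKM in brain (1.31, SE 0.23, adjusted p = 0.00238).

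The columns differed in ways that touch these results. The summed FPKM was 427621 and 837796 in the female and male heart and 210712 and 250996 in the brain, and the 10 highest genes held 17.8% and 22.8% of it in heart against 3.4% and 4.6% in brain. The female and male columns correlated across genes at a Pearson r of 0.889 in heart and 0.965 in brain. The 62 ribosomal protein genes were higher in the male column by a median of 1.70 log2 units in heart and 0.71 in brain, and liver transcripts were also higher in male columns: ALB, the albumin gene, stood at 1.903 and 155 FPKM in the female and male heart and at 6.05 and 52.2 FPKM in the brain. ALB was itself listed at 0 in both livers, so an exact 0 in the table can be a failed estimate. The part of these differences between the animals in the results below was not tested. The depth is unknown, since the files hold no counts.

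Of 13400 genes tested, 3409 (25.4%) were higher in heart and 2691 (20.1%) were higher in brain, and 7300 passed in neither direction. Without the term for the animal, 2188 were called higher in heart and 2210 higher in brain. Heart and brain columns did not overlap for 4843 genes with heart above (36.1%) and for 4245 genes with brain above (31.7%). The median difference over all genes tested was 0.12. The calls of the heart reached further: a difference of at least 8 was called for 26 genes higher in heart and 1 gene higher in brain, and of at least 6 for 76 and 44 genes. At a difference of at least 4 the order was turned, with 260 genes higher in heart and 341 higher in brain.

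**Figure D1:**
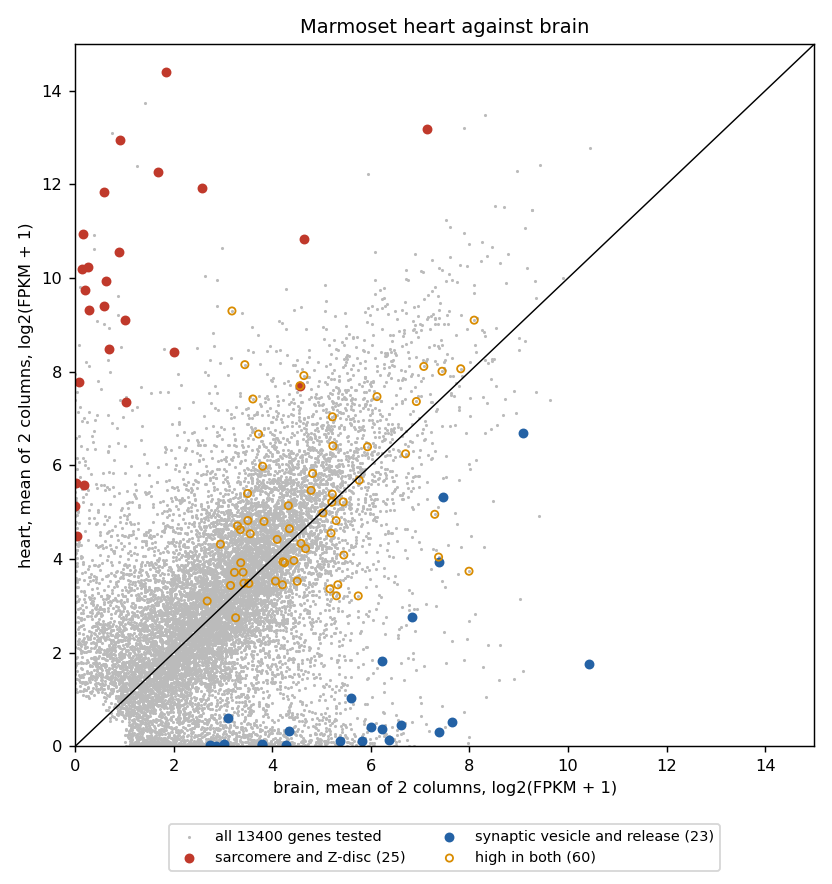
Mean log2(FPKM + 1) of the 2 heart columns (vertical axis) against the mean of the 2 brain columns (horizontal axis) for the 13400 genes tested (grey), with the 25 sarcomere and Z-disc genes in red, the 23 synaptic vesicle genes in blue and the 60 genes high in both tissues as open orange circles. The diagonal marks equal levels: each red point lies above it and each blue point below it, and the open circles lie on both sides.

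The 12 largest differences toward heart among genes with a symbol ran from 9.67 to 12.56. A gene without one, ENSCJAG00000034872, differed by 12.34 (SE 1.11), with 2764.7 and 27832 FPKM in the female and male heart and 0 and 1.85 FPKM in brain. MYL2 differed by 12.56 (SE 0.42, adjusted p = 3.54e-06). PLN, phospholamban, the brake on the calcium pump of the sarcoplasmic reticulum, stood at 13027 and 14554 FPKM in the female and male heart and at 0.632 and 3.42 FPKM in the brain, a difference of 12.32 (SE 0.36, adjusted p = 3.54e-06). The heart and brain columns of PLN did not overlap. MYL3, an essential myosin light chain, stood at 6688 and 9448 FPKM in heart and 0.173 and 1.98 FPKM in brain, and differed by 12.05 (SE 0.35). ACTC1, cardiac alpha-actin, stood at 3075 and 4372 FPKM in heart and 0.172 and 0.933 FPKM in brain, and differed by 11.25 (SE 0.24). The others were MB (myoglobin, the oxygen store of muscle), HSPB7 (a cardiac member of the small heat shock proteins), ACTA1 (skeletal alpha-actin), CKM (muscle creatine kinase), ANKRD1 (a stress-responsive protein of the sarcomere), MYL7 (the atrial regulatory light chain), TECRL (linked to inherited arrhythmia) and TNNI3 (cardiac troponin I), with differences of 9.67 to 11.16. In each of these 12 both heart columns held at least 414 FPKM and both brain columns at most 7.69 FPKM. ACTC1 and ACTA1 are near-identical in their coding sequence, and no source used here says how shared reads were assigned between them.

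Toward brain the 12 largest differences among genes with a symbol ran from -6.86 to -8.67. SNAP25 had the largest of these, with a difference of -8.67 (SE 0.32, adjusted p = 3.80e-06). TMEM151B, a transmembrane protein gene, stood at 298 and 211 FPKM in the female and male brain and at 0.0591 and 0.0318 FPKM in the heart, a difference of -7.91 (SE 0.22). CALB1, calbindin, a calcium buffer of Purkinje cells and some interneurons, stood at 208 and 310 FPKM in brain and 0.137 and 0.177 FPKM in heart, a difference of -7.79 (SE 0.26). Both were below 0.2 FPKM in each heart column. CALB1 also stood at 273 and 229 FPKM in the female and male kidney. GPM6A, a neuronal membrane glycoprotein, stood at 504 and 577 FPKM in brain and 1.20 and 3.23 FPKM in heart. TUBB4, a beta-tubulin of neurons under the name the table gives it, stood at 420 and 537 FPKM in brain and 1.23 and 2.34 FPKM in heart. ENO2 (neuronal enolase), RTN1 (a reticulon of neuroendocrine cells), CALCB, SYP (synaptophysin of synaptic vesicles), SLC17A7 (the vesicular glutamate transporter of cortical neurons and granule cells), PVALB (parvalbumin, a calcium buffer of fast-firing neurons) and PHYHIP completed the list, with differences of -6.86 to -7.30. CALCB and MB take their names from the Ensembl name table alone, and CALCB, a member of the calcitonin gene family, is therefore uncertain. The gene under that name also stood at 25.7 and 54.5 FPKM in kidney.

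**Figure D2:**
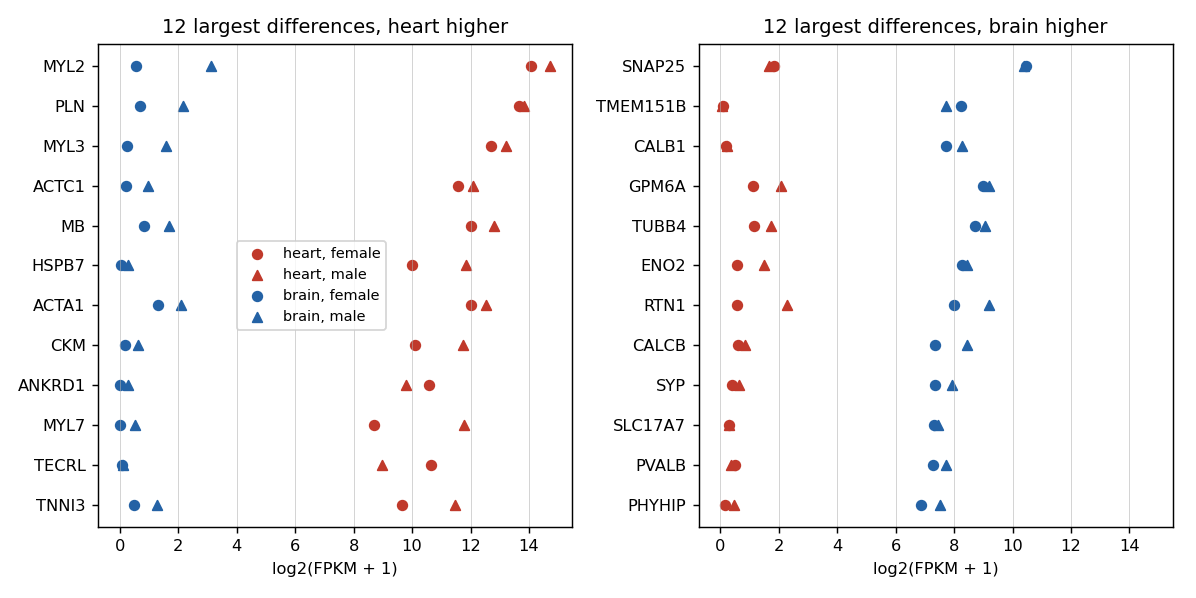
The 12 genes with a symbol with the largest heart-minus-brain difference in each direction, as log2(FPKM + 1) in each column (red for heart, blue for brain, circles for the female and triangles for the male animal). The heart and brain points of a gene are separated in each of the 24 rows, and the female and male hearts lie furthest apart for MYL7.

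The contractile genes were higher in heart without exception among those tested. All 25 tested members of the sarcomere and Z-disc list were called higher in heart, with a median difference of 8.84. TNNT2, cardiac troponin T, stood at 685 and 678 FPKM in heart and at 0.389 and 0.602 FPKM in brain (difference 8.84, SE 0.22). TTN, titin, the molecular spring of the sarcomere, stood at 55.8 and 41.6 FPKM in heart and at 0.00190 and 0.0175 FPKM in brain. The animals were close for both genes. MYH6 and MYH7, the cardiac myosin heavy chains, were listed at 1179 and 1043.7 FPKM in the female heart and at 0 in the male heart, and were not tested because a single column reached 1 FPKM. The smallest difference of the list was that of NEBL, nebulette of the Z-disc, with 362 and 118 FPKM in heart and 25.7 and 19.9 FPKM in brain (3.14, SE 0.37). CRYAB, alpha-B crystallin, a chaperone also made by glia, was the highest member in brain, at 171 and 114 FPKM against 7031 and 12346 FPKM in heart. ACTN2, TCAP and DES were not matched in the table and are not analysed here. Measured as a share of their own heart level, the list's genes with at least 50 FPKM in the heart stood in the brain of the same animal at a median of 0.0348% (female, 24 genes) and 0.0652% (male, 22 genes).

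Genes of atrial muscle and the natriuretic peptides were uneven between the hearts. NPPA, atrial natriuretic peptide, stood at 23.1 FPKM in the female and 693 FPKM in the male heart, and NPPB, B-type natriuretic peptide, at 80.8 and 748 FPKM. MYL7 stood at 414 and 3530 FPKM in the female and male heart, and MYL4, the atrial essential light chain, at 152 and 316 FPKM. In all 4 the male heart was higher, as it was for MYL2 by a smaller ratio. The whole male heart column was also higher, summing to 837796 FPKM against 427621 FPKM in the female. MYL4 rose about as much as this sum and MYL2 less. Against the brain NPPA differed by 6.83 (SE 1.09, adjusted p = 0.00168) and NPPB by 7.95 (SE 0.77, adjusted p = 0.000150). NPPB was listed at 0 in both brain columns and NPPA stood at 0.0224 and 0.262 FPKM. NPR3, the clearance receptor for these peptides, was also called higher in heart, while the signalling receptors NPR1 and NPR2 and the processing protease CORIN passed in neither direction. Whether the hearts differ in the share of atrial tissue was not tested.

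Calcium handling genes followed the contractile genes. Of 14 tested, 11 were called higher in heart, with a median difference of 4.51. CASQ2, the calcium-storing calsequestrin of the heart, stood at 472 and 442 FPKM in heart and at 4.85 and 7.24 FPKM in brain (6.04, SE 0.24). SLC8A1, the sodium-calcium exchanger that extrudes calcium between beats, stood at 172 and 132 FPKM in heart and 1.53 and 1.27 FPKM in brain (5.98, SE 0.30). ATP2A2, the calcium pump of the reticulum, was high in heart at 1563 and 1371 FPKM and still at 123 and 115 FPKM in brain (3.61, SE 0.25). The 3 that passed in neither direction were CACNB2, a calcium channel beta subunit (0.88, SE 0.22), CAMK2D, the cardiac calmodulin kinase subunit (0.95, SE 0.21), and ASPH, the gene of junctin and an aspartate hydroxylase (-0.09, SE 0.33). CACNB2 stood at 25.6 and 32.3 FPKM in heart and 14.1 and 16.4 FPKM in brain, so its columns did not overlap although its difference was under 1.

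Ion channels were divided between the tissues. Of 15 tested channel and gap junction genes chosen for the heart, 11 were called higher in heart, 3 in brain and 1 in neither, with a median of 1.67. KCNJ5, a subunit of the acetylcholine-gated potassium channel, stood at 49.0 and 101 FPKM in heart and at 0.0739 and 0.176 FPKM in brain (5.99, SE 0.28). POPDC2, a cAMP-binding membrane protein of heart muscle, had the largest difference of this list (6.68, SE 0.22). KCNQ1, the channel of the slow delayed rectifier, stood at 15.01 and 32.1 FPKM in heart and at 0.0330 and 0.0568 FPKM in brain (4.46, SE 0.89). The difference was 3.95 in the female and 4.97 in the male. The SE also rests on the kidney and liver columns, where KCNQ1 stood at 9.12 and 30.8 FPKM and at 10.04 and 0.874 FPKM. With a brain column left out, KCNQ1 kept its difference and its adjusted p rose to 0.0646 (female left out) and 0.0702 (male left out).

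The 3 cardiac channel genes that were called higher in brain are also known in neurons. KCNJ3, the partner of KCNJ5 in the acetylcholine-gated channel, stood at 39.5 and 37.9 FPKM in brain and at 3.62 and 1.64 FPKM in heart (-3.51, SE 0.33), so the subunits of this channel lay on opposite sides. KCND3, which carries transient outward current, stood at 2.79 and 2.04 FPKM in brain and 0.778 and 0.348 FPKM in heart (-1.13, SE 0.25, adjusted p = 0.00777, and 0.0532 without the term for the animal). Its call was also lost without the male brain column (adjusted p = 0.0757) and with quantile normalization (-0.74). SCN4B, a sodium channel beta subunit, stood at 18.4 and 18.2 FPKM in brain and at 11.3 and 1.46 FPKM in the female and male heart (-1.81, SE 0.63, adjusted p = 0.0440, and 0.0955 without the term for the animal). Without the male heart the difference was -0.55 (adjusted p = 0.201), and without the female or the male brain column the adjusted p was 0.152 or 0.272. GJA1, connexin 43 of heart muscle and of astrocytes, stood at 310 and 116 FPKM in heart and 51.9 and 66.6 FPKM in brain (1.67, SE 0.40, adjusted p = 0.0106, and 0.0611 without the term for the animal). Without the female heart or the female brain column, the GJA1 difference was 1.14 or 1.03 and the call was lost (adjusted p = 0.0787 and 0.0765). It was also lost with quantile normalization, where the difference was 0.61 (adjusted p = 0.307). CACNA2D1, an accessory calcium channel subunit, passed in neither direction.

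Of 22 tested voltage-gated channel genes chosen for neurons, 20 were called higher in brain and none in heart, with a median of -3.43. SCN2A, a main sodium channel of axons, stood at 52.3 and 46.3 FPKM in brain and 0.123 and 0.0561 FPKM in heart (-5.53, SE 0.18). CACNB4, a calcium channel beta subunit, stood at 60.5 and 50.5 FPKM in brain and 0.186 and 0.0475 FPKM in heart (-5.66, SE 0.18). KCNC1, a potassium channel that allows fast repetitive firing, stood at 52.5 and 52.4 FPKM in brain and 0 and 0.139 FPKM in heart (-5.65, SE 0.19). The exceptions were HCN2, a pacemaker channel, at 7.26 and 13.2 FPKM in heart and 7.19 and 8.67 FPKM in brain (0.28, SE 0.22), and CACNA2D3, an accessory calcium channel subunit, at 14.6 and 9.42 FPKM in heart and 6.28 and 5.63 FPKM in brain (0.88, SE 0.28). For CACNA2D3 the heart columns lay above the brain columns, whereas for HCN2 they overlapped.

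All 23 tested genes of synaptic vesicles and transmitter release were called higher in brain (median -4.26), as were all 20 tested neurotransmitter receptor genes (median -4.15), all 13 of the neuronal cytoskeleton (median -3.63) and all 12 tested neuropeptide genes (median -3.92). SYP stood at 162 and 242 FPKM in brain and 0.323 and 0.544 FPKM in heart. GABRA6 was listed at 0 in both heart columns (-6.77, SE 0.21). GRIA2, an AMPA receptor subunit, stood at 85.2 and 72.5 FPKM in brain and 0.323 and 0.0792 FPKM in heart (-6.06, SE 0.21). GAD1 and GAD2, which make GABA, stood at 50.5 and 60.8 FPKM and at 19.2 and 17.9 FPKM in brain, and below 0.1 FPKM in heart. SST, somatostatin, was the neuropeptide with the largest difference, at 39.2 and 65.1 FPKM in brain and 0 and 0.362 FPKM in heart (-5.46, SE 0.23).

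Not every vesicle gene was near 0 in the heart. VAMP2, the vesicle SNARE that pairs with SNAP25 and is also used in glucose transporter trafficking, stood at 69.7 and 152 FPKM in heart and 582 and 501 FPKM in brain (-2.38, SE 0.35). RAB3A, a vesicle GTPase, stood at 19.8 and 77.3 FPKM in heart and 135 and 225 FPKM in brain (-2.12, SE 0.33, adjusted p = 0.00141, and 0.118 without the term for the animal). Measured as a share of their brain level, the vesicle genes with at least 50 FPKM in brain stood in the heart of the same animal at a median of 0.443% (female, 13 genes) and 0.640% (male, 14 genes), with RAB3A at the top of the range at 14.7% and 34.4%.

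Most of the listed cell types beside muscle and neurons also separated the tissues, and their part in the differences above was not tested. All 12 tested myelin and oligodendrocyte genes were called higher in brain (median -2.86), among them MBP, myelin basic protein, at 291 and 376 FPKM in brain and 1.95 and 5.81 FPKM in heart (-6.21, SE 0.28). Of 12 astrocyte genes, 10 were called higher in brain, GJA1 in heart, and NDRG2 in neither direction at 238 and 397 FPKM in heart and 302 and 434 FPKM in brain. GFAP, the astrocyte intermediate filament, stood at 22.2 and 45.1 FPKM in brain and 0 and 0.406 FPKM in heart. All 10 cortical and all 12 tested cerebellar neuron genes were called higher in brain. In the other direction, all 9 tested endothelial genes and all 9 tested fibroblast and smooth muscle genes were called higher in heart. Of 6 tested immune genes, 2 were called higher in heart and 4 in neither direction. Of 2 tested adipocyte genes, 1 was called in each direction. The 1 tested choroid plexus gene passed in neither. The endothelial list summed to 281 and 316 FPKM in the female and male heart against 30.6 and 39.6 FPKM in brain, and the fibroblast and smooth muscle list to 1329 and 1367 FPKM against 44.8 and 76.1 FPKM. HBB, the beta-globin gene of red blood cells, stood at 11275 and 11717 FPKM in heart and 222 and 453 FPKM in brain (5.18, SE 0.47), so blood transcripts differed between the tissues too.

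**Figure D3:**
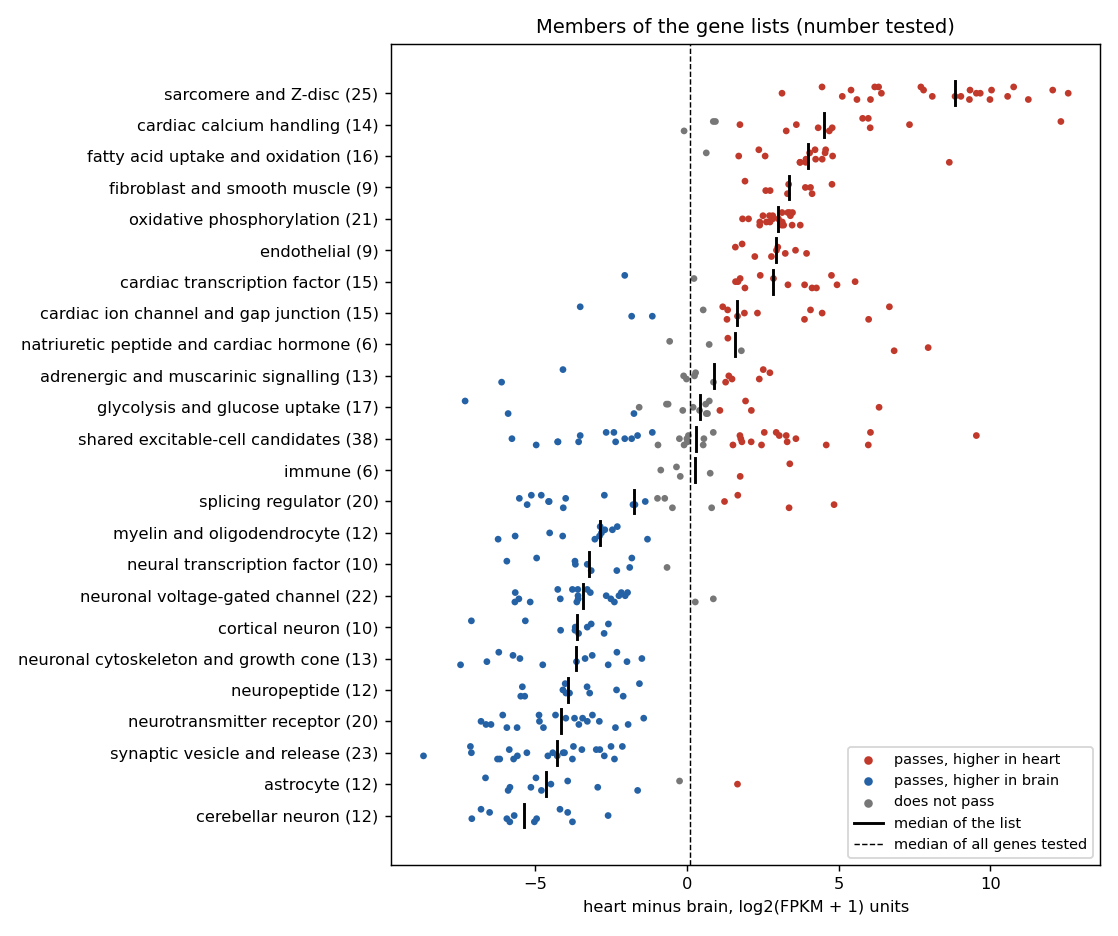
Heart-minus-brain difference of each tested member (dots) of the gene lists with at least 5 members tested, ordered by the list median (black bar); the dashed line is the median of all genes tested (0.12), and the number tested is given beside each name. Red and blue dots passed as higher in heart or in brain, grey dots passed in neither direction, and the dots of the adrenergic, glycolysis, shared-candidate and splicing lists fall on both sides.

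Genes of energy metabolism were mostly higher in heart, except those of glycolysis. All 21 tested genes of oxidative phosphorylation were called higher in heart, with a median of 3.02. NDUFS1, a core subunit of complex I, stood at 572 and 439 FPKM in heart and 43.8 and 44.7 FPKM in brain (3.47, SE 0.27). ATP5F1C, a subunit of ATP synthase, stood at 178 and 452 FPKM in heart and 15.7 and 26.2 FPKM in brain (3.74, SE 0.26), the largest difference of the list. Summed over the list, the level was 10395 and 15731 FPKM in the female and male heart, 1412 and 1781 FPKM in brain, 2400.1 and 4327 FPKM in kidney and 3433 and 6023 FPKM in liver. In summed FPKM the brain was therefore the lowest of the 4 tissues in each animal and the heart the highest. These sums are not scaled for the column totals, which differed between the tissues. The totals were 210712 and 250996 FPKM in brain, 336485 and 611025 FPKM in kidney and 951576 and 1686921 FPKM in liver. The heart columns totalled 427621 and 837796 FPKM. As a share of its column total, the list was still highest in heart in each animal, but lowest in liver rather than in brain.

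Genes of fatty acid uptake and oxidation gave a median of 3.99, with 15 of 16 tested called higher in heart. CD36, the fatty acid translocase, stood at 610 and 482 FPKM in heart and 0.280 and 0.431 FPKM in brain (8.65, SE 0.35). LPL, which frees fatty acids from circulating lipoproteins, stood at 244 and 480 FPKM in heart and 9.71 and 13.1 FPKM in brain (4.81, SE 0.38). ACADM, the medium-chain acyl-CoA dehydrogenase, stood at 498 and 242 FPKM in heart and 15.6 and 12.1 FPKM in brain (4.56, SE 0.34). SLC27A1, a fatty acid transport protein, passed in neither direction. The list summed to 5250.5 and 5120.7 FPKM in heart, 241 and 275 FPKM in brain, 905 and 1429 FPKM in kidney and 2484 and 2876 FPKM in liver.

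Glycolysis did not divide in this way. Of 17 tested genes, 4 were called higher in heart, 3 in brain and 10 in neither direction, with a median of 0.42. These counts lay near the shares over all genes tested, 25.4% higher in heart and 20.1% in brain, with a median of 0.12. The list summed to 1654 and 2709 FPKM in heart and 1785 and 1937 FPKM in brain, and these ranges overlapped. The whole columns summed to 427621 and 837796 FPKM in heart and 210712 and 250996 FPKM in brain. As a share of its column, the list was therefore larger in both brain columns than in either heart column. Those called higher in heart were SLC2A4, the insulin-responsive glucose transporter (158 and 259 FPKM against 1.05 and 2.09 FPKM), PFKM, muscle phosphofructokinase, ALDOA, aldolase A, and TPI1, triosephosphate isomerase. Those called higher in brain were ENO2, ALDOC, the aldolase of brain, and SLC2A1, the glucose transporter of the blood-brain barrier. SLC2A1 stood at 19.5 and 30.5 FPKM in brain and at 2.14 and 17.5 FPKM in the female and male heart (-1.74, SE 0.53, adjusted p = 0.0277, and 0.143 without the term for the animal). Without the female heart its difference was -0.70 (adjusted p = 0.0978), and without the female or the male brain column its adjusted p was 0.203 or 0.121. Among those in neither direction were HK1, the hexokinase of most tissues, at 42.2 and 39.3 FPKM in heart and 26.8 and 25.3 FPKM in brain, and PGK1, phosphoglycerate kinase, at 74.6 and 66.7 FPKM in heart and 58.9 and 62.7 FPKM in brain.

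Several gene families hold a member known from heart and muscle and a relative known from brain. In 34 listed pairs a heart-type and a brain-type role was assigned, and 25 pairs had both genes tested. In 13 the heart-type gene was called higher in heart and the brain-type gene higher in brain, in 2 both were higher in heart, in 2 both were higher in brain, in none were the roles crossed, and in 8 at least 1 gene passed in neither direction. Against the background shares of 25.4% and 20.1%, these counts describe pairs that were chosen for an assigned tissue. Some assigned roles do not follow the levels here. SYT11, listed as heart-type, stood at 2.86 and 2.51 FPKM in heart and 109 and 104 FPKM in brain. HSPB1, listed as brain-type, stood at 22.8 and 18.8 FPKM in brain and 234 and 983 FPKM in kidney.

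Fuel and energy genes gave several divided pairs, with the heart-type gene higher in heart and the brain-type gene higher in brain. For fatty acid binding proteins, FABP3 of heart stood at 1960 and 1141 FPKM in heart and 73.3 and 60.9 FPKM in brain (4.46, SE 0.28), and FABP7 of radial and astrocytic glia at 0.698 and 0.154 FPKM in heart and 155 and 122 FPKM in brain (-6.63, SE 0.24). For the carnitine palmitoyltransferases, the muscle form CPT1B differed by 3.73 (SE 0.31) and the brain form CPT1C by -4.49 (SE 0.20). For aldolase, ALDOA stood at 468 and 873 FPKM in heart and 162 and 170 FPKM in brain, while ALDOC stood at 9.06 and 6.87 FPKM in heart and 491 and 557 FPKM in brain. The ALDOA call was lost with quantile normalization (0.32). For cytochrome c oxidase subunit 6A, the muscle form COX6A2 stood at 357 and 1723 FPKM in heart and 0.575 and 1.15 FPKM in brain (8.74, SE 0.42), and COX6A1 at 21.1 and 121 FPKM in heart and 153 and 315 FPKM in brain (-2.09, SE 0.39, adjusted p = 0.00331, and 0.159 without the term for the animal). COX6A1 thus exceeded COX6A2 in each brain column and was below it in each heart column. In each animal COX6A1 was higher in kidney (303 and 818 FPKM) and liver (493 and 1215 FPKM) than in brain. Its brain-type role is therefore relative to the heart.

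Channel, receptor and calcium release genes paired in the same manner. CACNA1C, the L-type calcium channel of the heartbeat, stood at 6.99 and 4.99 FPKM in heart and 1.41 and 0.749 FPKM in brain (1.75, SE 0.18), and CACNA1A, the P/Q-type channel of nerve terminals, at 0.0974 and 0.0959 FPKM in heart and 17.3 and 20.1 FPKM in brain (-4.16, SE 0.21). HCN4, the pacemaker channel of the sinus node, was low in both tissues, at 1.20 and 4.26 FPKM in heart and 0.282 and 0.434 FPKM in brain (1.33, SE 0.31). Without the male heart the HCN4 difference was 0.72, and without the female or the male brain column its adjusted p was 0.0637 or 0.105. The inward rectifiers KCNJ2 of muscle and KCNJ10 of glia differed by 4.08 (SE 0.34) and -4.47 (SE 0.24). The muscarinic receptors CHRM2 of the heart and CHRM1 of the cortex differed by 2.74 (SE 0.30) and -3.69 (SE 0.16). For calcium release from internal stores, RYR2, the cardiac ryanodine receptor, stood at 430 and 135 FPKM in heart and 26.3 and 21.8 FPKM in brain (3.28, SE 0.42), and ITPR1, the IP3 receptor abundant in Purkinje cells, at 8.17 and 6.11 FPKM in heart and 94.7 and 124 FPKM in brain (-3.76, SE 0.27). Both calcium release channels were thus present in both tissues, with opposite order.

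Other pairs were not divided between the tissues. CKM stood at 1102 and 3455 FPKM in heart and 0.118 and 0.537 FPKM in brain (10.54, SE 0.33), while CKB, called the brain creatine kinase, stood at 72.2 and 787 FPKM in heart and 135 and 391.8 FPKM in brain (0.06, SE 0.48). The male column was the higher one in both tissues for CKB, and with quantile normalization its difference was -1.80 (adjusted p = 0.00162). PYGM and PYGB, the muscle and brain glycogen phosphorylases, were both called higher in heart, by 3.81 (SE 0.24) and 2.05 (SE 0.38). PYGB stood at 75.5 and 258 FPKM in heart and 29.3 and 37.3 FPKM in brain. Without the male brain column its adjusted p was 0.0544. HSPB7 and HSPB1, small heat shock proteins, were also both higher in heart. SYT11 and SYT1, synaptotagmins, and KCND3 and KCND2, of transient outward current, were both higher in brain, and KCND2 was listed at 0 in both heart columns. ANK2 and ANK3, ankyrins that anchor channels to the membrane skeleton, passed in neither direction (-0.95, SE 0.22, and 0.02, SE 0.22). ANK2 stood at 29.9 and 26.1 FPKM in heart and 56.3 and 53.1 FPKM in brain, so its columns did not overlap. Its adjusted p was 0.00853, and its difference fell short of the threshold of 1. ANK3 stood at 36.6 and 29.99 FPKM in heart and 34.3 and 30.9 FPKM in brain, a name taken from the Ensembl table alone.

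**Figure D4:**
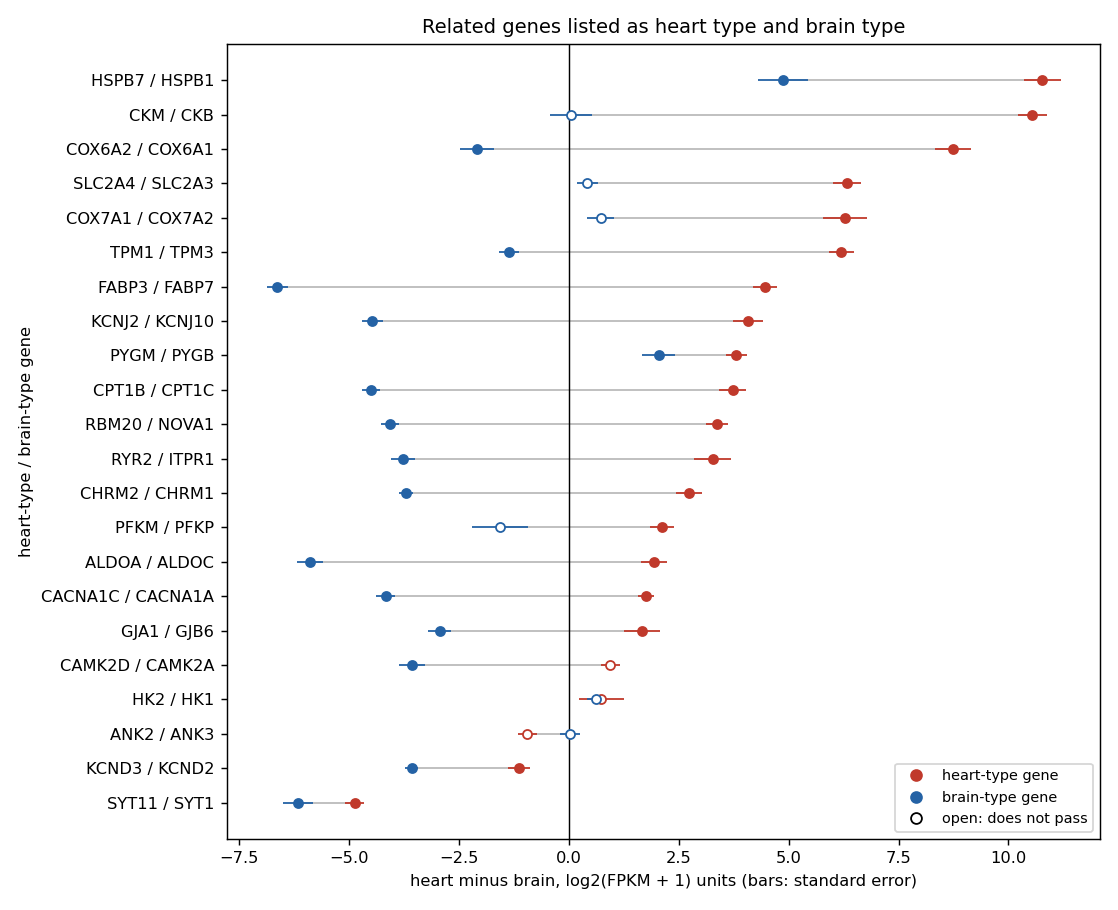
Heart-minus-brain difference with its standard error for 22 of the 25 pairs with both genes tested, heart-type gene in red and brain-type gene in blue, ordered by the heart-type gene; open circles passed in neither direction. The filled red points right of 0 and filled blue points left of 0 make up 11 of the 13 divided pairs. SYT11 and KCND3, listed as heart-type, were called higher in brain.

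Regulators of transcription and splicing were divided as well. Of 15 tested cardiac transcription factors, 13 were called higher in heart (median 2.86). NKX2-5, a master regulator of heart development, stood at 19.1 and 118 FPKM in heart and 0 and 0.0906 FPKM in brain (5.55, SE 0.57). GATA6 stood at 11.9 and 78.6 FPKM and GATA4 at 10.9 and 32.0 FPKM in heart, both at most 0.0634 FPKM in brain, while TBX20 stood at 50.9 and 13.6 FPKM in heart and 0 and 0.0191 FPKM in brain. The male heart was the higher one for NKX2-5, GATA4 and GATA6 and the lower one for TBX20. MEF2C, which acts in both muscle and neurons, was called higher in brain, at 63.3 and 48.6 FPKM against 17.5 and 9.204 FPKM in heart (-2.04, SE 0.25), and ESRRG, a nuclear receptor of oxidative metabolism, passed in neither direction. Of 10 tested neural transcription factors, 9 were called higher in brain and BCL11A in neither direction.

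Of 20 tested splicing regulators, 4 were called higher in heart, 12 in brain and 4 in neither direction. RBM24 and RBM20, splicing factors of titin and other muscle genes, stood at 220 and 195 FPKM and at 13.6 and 6.74 FPKM in heart, against 6.50 and 5.88 FPKM and 0.0263 and 0.0270 FPKM in brain (4.85, SE 0.30, and 3.37, SE 0.25). MBNL1 and QKI were the others in heart, and both calls were lost with quantile normalization (0.58 and 0.92). ELAVL3, a neuronal RNA-binding protein, stood at 43.6 and 45.6 FPKM in brain and was listed at 0 in both hearts, and RBFOX3, known as the neuronal marker NeuN, differed by -5.12 (SE 0.24). RBFOX1, a splicing factor of muscle, heart and neurons, stood at 14.2 and 18.0 FPKM in heart and 40.4 and 45.3 FPKM in brain (-1.36, SE 0.24, adjusted p = 0.00269, and 0.111 with a pseudocount of 0.1). It was below 1 FPKM in each kidney and liver column. RBFOX2, CELF2, PTBP1 and MBNL2 passed in neither direction.

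Signalling by the autonomic nervous system showed members on each side. Of 13 tested genes, 6 were called higher in heart, 2 in brain and 5 in neither direction. ADCY5, the adenylyl cyclase of the heart and striatum, stood at 45.001 and 70.6 FPKM in heart and 8.84 and 9.15 FPKM in brain (2.52, SE 0.25). CHRM2, the receptor that slows the heart, stood at 12.2 and 4.61 FPKM in heart and 0.459 and 0.140 FPKM in brain. GNAO1, the abundant G protein of brain, and RGS4, a regulator of G protein signalling, were called higher in brain, by -4.07 (SE 0.32) and -6.10 (SE 0.29). ADRA1B, ADCY6, PDE4D, GNAS and PRKAR1A passed in neither direction.

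High in both heart and brain, with each of the 4 columns at least 2 log2 units above every kidney and liver column, were 60 genes, or 0.429% of the 13986 genes with at least 3 FPKM in a column. These were chosen by their levels, so the following is a description with no test of that pattern. The same rule gave 18 genes for heart with kidney, 11 for heart with liver, 25 for brain with kidney, 12 for brain with liver and 233 (1.67%) for kidney with liver. Of the 60, 56 carry a symbol. By the heart-minus-brain fit, made on the same heart and brain columns, 17 were higher in heart, 8 in brain and 35 in neither direction. Over all genes tested, 25.4% were higher in heart and 20.1% in brain. The margin, the lowest heart or brain column minus the highest kidney or liver column, had a median of 2.48. Members nearest the threshold were SGCB, NAP1L2 and SLC35F1 at 2.01 to 2.03, and 5 genes lay just outside it, at 1.92 to 1.95, among them CCNJL, P2RX6, NMNAT2 and ZFPM2.

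Several members serve excitation and calcium. RYR2 stood at 0.0637 to 0.303 FPKM in kidney and liver, against at least 21.8 FPKM in each heart and brain column. KCNIP2, the accessory subunit of transient outward channels, stood at 87.1 and 81.8 FPKM in heart and 41.2 and 32.4 FPKM in brain. In kidney and liver it reached at most 1.10 FPKM. It was called higher in heart (1.19, SE 0.26), a call lost with quantile normalization (0.40) and without the male brain column (adjusted p = 0.0729). HCN2 stood at 0.103 to 0.401 FPKM in kidney and liver. KCNH2, the channel of the rapid delayed rectifier, stood at 23.0 and 73.5 FPKM in heart and 8.92 and 11.9 FPKM in brain (1.901, SE 0.38). Without the male brain column its adjusted p was 0.0732. Of the 38 genes in the table from a list of candidates for shared excitable-cell function, 6 were in the set of 60.

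Other members are better known from one of the tissues. SYNPR, synaptoporin, a synaptic vesicle protein, stood at 73.8 and 76.3 FPKM in heart and 105 and 102 FPKM in brain, and below 1 FPKM in each kidney and liver column (margin 5.34). Its close relative SYP was below 1 FPKM in both hearts, so these vesicle proteins lay far apart in the heart. NDRG4, a gene of heart and nervous system development, stood at 547 and 550 FPKM in heart and 280 and 265 FPKM in brain (margin 4.50). Its difference of 1.01 (SE 0.28) lay at the threshold, lost the call without the term for the animal (adjusted p = 0.0770), without the female heart (0.82) and without the male brain column (0.76), and turned to -0.81 with quantile normalization. GPR22, an orphan G protein-coupled receptor, stood at 42.0 and 17.2 FPKM in heart and 12.9 and 13.6 FPKM in brain. In kidney and liver it reached at most 0.0490 FPKM. SLC4A10, a sodium-bicarbonate transporter of neurons, stood at 10.8 and 9.14 FPKM in heart and 47.7 and 32.2 FPKM in brain.

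Membrane skeleton, adhesion and matrix genes formed another portion. DTNA, alpha-dystrobrevin of the dystrophin complex, stood at 167 and 102 FPKM in heart and 37.5 and 35.1 FPKM in brain (1.82, SE 0.26). ANK1, ankyrin of red cells and muscle, stood at 119 and 85.6 FPKM in heart and 11.6 and 12.8 FPKM in brain (2.95, SE 0.27). NCAM1, the neural cell adhesion molecule, was nearly level at 28.7 and 45.5 FPKM in heart and 37.6 and 34.4 FPKM in brain (0.01, SE 0.29). SPARCL1, a matrix protein, stood at 347 and 219 FPKM in heart and 150 and 120 FPKM in brain, and its difference of 1.04 lost the call without the term for the animal (adjusted p = 0.0999), without the female heart (0.96) and without the female brain column (0.895), and turned to -0.40 with quantile normalization.

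EEF1A2, the translation elongation factor of muscle and neurons, stood at 104 and 633 FPKM in heart and 140 and 214 FPKM in brain. In kidney and liver it reached at most 7.69 FPKM. The male heart exceeded the other 3 heart and brain columns, and the difference of 0.57 (SE 0.46) turned to -1.05 (adjusted p = 0.0194) with quantile normalization. PYGM and PGAM2, the muscle phosphoglycerate mutase, belonged to the set although they were called higher in heart by 3.81 and 6.12, since both stood at 6.42 to 13.7 FPKM in brain and at most 1.13 FPKM in kidney and liver. RBFOX1 and CELF2 were the splicing regulators in the set. RAB33A, REEP1, PTPRR, IGSF1, CAP2 and ADGRB3 were further members with a margin of 2.62 to 3.44, and of these RAB33A (2.18, SE 0.27) and IGSF1 (1.41, SE 0.26) were called higher in heart.

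**Figure D5:**
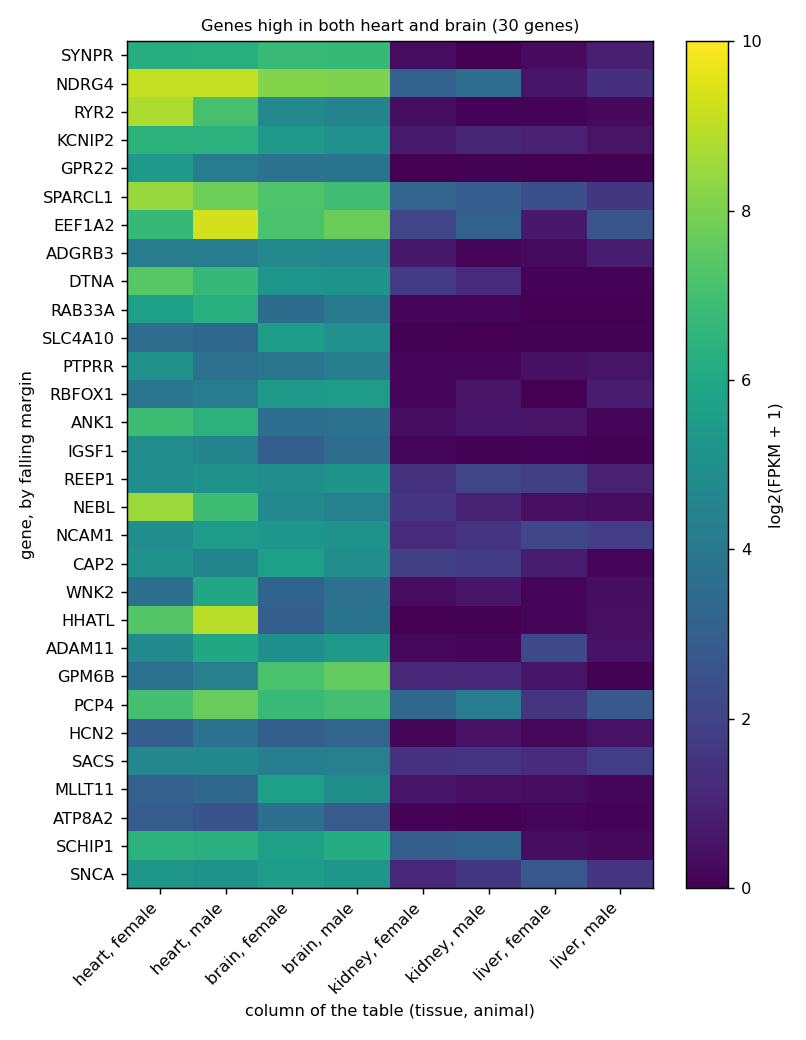
Level of 30 genes with a symbol among the 60 high in both tissues, given as log2(FPKM + 1) by colour in each of the 8 columns, ordered by falling margin. The 4 heart and brain columns are lighter than the kidney and liver columns in each row, and NDRG4 and EEF1A2 reach the highest levels, at 550 and 633 FPKM in the male heart.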

How the data were processed

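The deposited values are FPKM made by the authors with TopHat 1.4.0 and Cufflinks 2.0.0, per the submitters' processing notes, in a table that its name calls normalized. The normalization method is not given in the sources used here, nor are genome build and annotation. Of the columns of per-sample values in the tables of the series, 22 were not used. Gene symbols came from the table for 7869 genes, from its UniProt entries for 35, from RefSeq (calJac240_pri) by gene number for 6927 and from the Ensembl name table for 1267, and 3583 genes had none.

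Genes reaching 1 FPKM in 2 or more of the 4 heart and brain columns were tested with limma 3.58.1 (R 4.3.3) on log2(FPKM + 1), with a mean-variance trend and terms for tissue and animal. The kidney and liver columns shared the estimate of the spread, which left 3 residual degrees of freedom. Each tissue has 1 animal of each sex, so p-values rest on 2 animals. The pairing comes from the labels' individual numbers. The male-minus-female differences of heart and brain correlated across 15100 genes at r = 0.67. Sex and animal coincide here, so this correlation cannot tell a shared animal from any other difference between the male and female columns. The script was tested on simulated data. Low values showed no steps from which reads could be recovered.

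Members and lists were chosen with earlier results of these data known. Genes named are the 12 largest differences in each direction, the 4 largest of each list with its exceptions, both genes of each pair, the 20 largest margins and the markers. Where 5 or fewer members fell outside a majority they are named too. These, PGK1, ALB and the genes next to the margin threshold were chosen after their values were seen. Alternatives were pseudocounts of 0.1 and 10, other filters, quantile and median scaling, no animal term, no trend and each column left out. Some genes that the rule names are not reported here, and pairs that hold them are not drawn.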

Additional observations from a re-analysis of the deposited data

How the results depend on the processing

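No gene called in either direction was called in the other under any of the 15 alternatives. Without the replicate block (the term for the animal), 2188 genes were higher in heart and 2210 in brain, all of them among those called with it, and 17 of the 21 oxidative phosphorylation genes stayed higher in heart. Of the named genes, 14 lost their call without it and 32 with a pseudocount of 10. A pseudocount of 10 left 1759 higher in heart and 952 in brain. Quantile normalization gave 3294 higher in heart and 2951 in brain, of which 2821 and 2413 were among the reported calls. With 1 heart or brain column left out, the counts were 2623 to 3432 in heart and 2417 to 2767 in brain. Without the male heart, all 25 sarcomere and 21 oxidative phosphorylation genes stayed higher in heart and all 23 synaptic vesicle genes in brain. This list check and the 2 fits without the kidney or the liver columns were chosen after seeing the data. The lists were not counted with quantile normalization. The number of genes high in both was 192 at a margin of at least 1 and 15 at 3, and 122 with a pseudocount of 0.1 and 6 with 10. Leaving out any column gave 65 to 75, a count that can only stay or rise, since fewer columns then have to meet the rule. With quantile normalization the difference turned to -1.80 for CKB, -1.05 for EEF1A2, -0.81 for NDRG4, -0.40 for SPARCL1, -2.81 for TMSB4X (thymosin beta-4), -0.24 for ENSCJAG00000021949 and -0.97 for ENSCJAG00000031814. The cause was not tested. The depth is unknown, and 2 animals limit the precision.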
